A study of Drosophila melanogaster with 4 samples.

Results

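Isolated wide Cmi peaks are ChIP-seq peaks of 500 bp or more that stood alone on the chromosome, with no other peak midpoint on the same arm within 5 kb. They were chosen from the 6 major arms (2L, 2R, 3L, 3R, 4 and X) of Drosophila melanogaster by the position and width of the authors' peaks, and 377 of the 3110 peaks of the list met the rule. That is 12.1% of the list (95% Wilson interval 11.0 to 13.3) and 14.1% of the 2679 peaks on the major arms (12.8 to 15.4). Width and spacing therefore describe these peaks and are no finding about them. The peaks they are set against are the 800 grouped wide peaks, which have the same minimum width but another peak within 5 kb. The major arms also held 590 isolated and 912 grouped peaks under 500 bp.

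The labels describe 2 libraries of chromatin immunoprecipitated with an affinity-purified, polyclonal rabbit antibody raised against the whole Cmi protein (CG5591), and 2 libraries of input DNA. Both came from embryos of 0 to 8 h of the strain Exd-GFP-13T, of genotype w; PBac{y[+]-attP-3B}VK00033 and of unknown sex. By these fields all 4 libraries carry a transgene of the exd coding region, a cofactor of the Hox proteins, with GFP in place of its stop codon. The extraction protocol in the same labels gives an older collection window and another stock, and the stage and strain fields were followed here. The data are 1 list of peaks with a position on FlyBase release 5 and 1 score per peak, without values for single libraries, so the depth is unknown and the agreement of replicates was not analysed. Comparisons are given as medians with an exact binomial interval over peaks, or as shares with a Wilson interval. These intervals cover the number of peaks and not the variation between embryo collections, and no p-value was computed.

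Cmi goes by the symbol Lpt in the gene table of Release 6, and its protein works within the complex of the methyltransferase Trithorax-related (Trr). In Drosophila this complex places methyl groups on lysine 4 of histone H3, chiefly the monomethyl mark that is typical of enhancers, and it also holds the demethylase Utx. Lpt and Trr correspond in the fly to parts of a single large protein in mammals, and Lpt takes part in hormone-dependent gene activation. Enhancers may lie alone or in arrays along a locus. The spacing given here is that of the peaks, and whether any peak is an enhancer was not tested. Peaks are named by position here, because genes were not assigned to them.

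Wide peaks that stood alone scored much like wide peaks in groups. The score is the peak caller's own value on a scale that is not stated. It was read here as higher for a taller pile of reads over background. The median score of the isolated wide peaks was 22.0 (95% interval of the median 20.6 to 23.6, n = 377), against 23.6 (22.0 to 25.2, n = 800) for grouped wide peaks, a difference of -1.55 with overlapping intervals. With a neighbour distance of 2 kb the difference was 2.05, in the other direction. The quartiles were 16.0 and 31.4 for isolated wide peaks and 16.2 and 35.4 for grouped wide peaks. A score above 50 was held by 37 isolated wide peaks, or 9.81% (7.20 to 13.2), and by 97 grouped wide peaks, or 12.1% (10.0 to 14.6). A score above 15 was held by 295 isolated wide peaks (78.2%, 73.8 to 82.1), compared with 80.1% of grouped wide peaks (77.2 to 82.7). The median score of grouped wide peaks was slightly higher in larger groups, with overlapping intervals. It was 22.5 (20.0 to 24.6, n = 289) in groups of 2, 23.3 (21.0 to 26.2, n = 280) in groups of 3 or 4, and 25.7 (22.8 to 27.9, n = 231) in groups of 5 or more. Median width rose in the same order (778, 808.5 and 871 bp), and the group sizes were not compared at like widths.

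**Figure D1:**
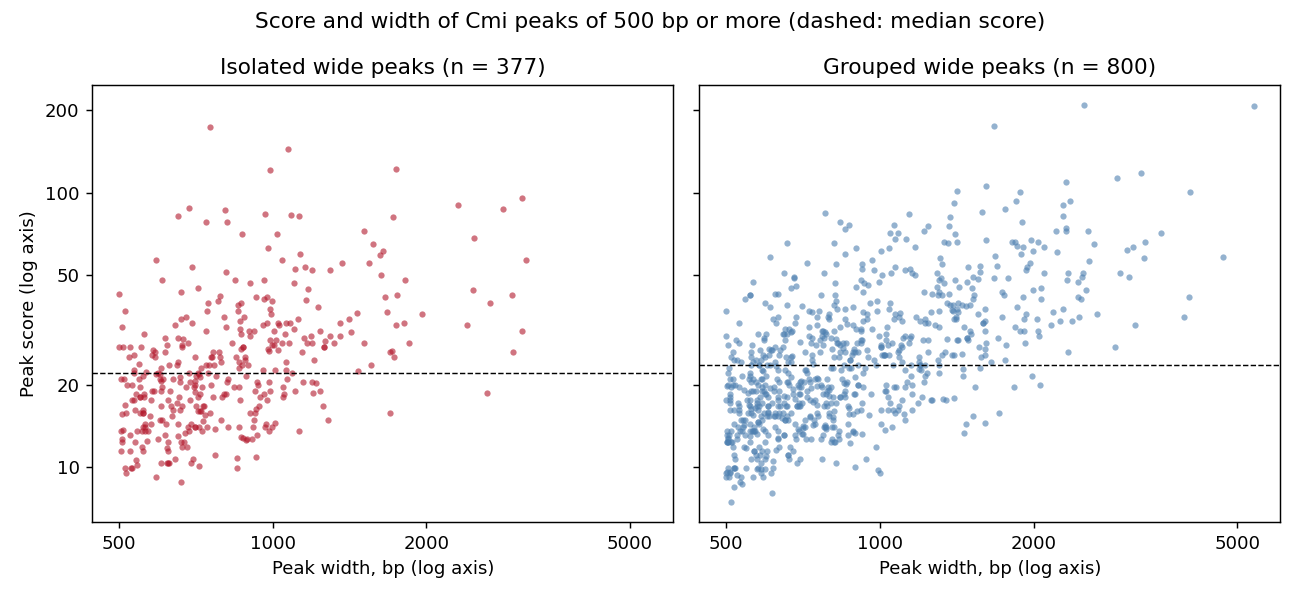
Score against width (both log axes) for each of the 377 isolated wide peaks (left) and the 800 grouped wide peaks (right), with the median score as a dashed line. The medians lie close together (22.0 and 23.6), while grouped peaks reach 5398 bp and isolated peaks 3130 bp.

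The isolated wide peaks were somewhat narrower than the grouped ones, beyond the common minimum, a description since width chose both sets. Their median width was 774 bp (736 to 843; quartiles 624 and 1013 bp), against 813.5 bp (784 to 846; quartiles 621 and 1201 bp) for grouped wide peaks. Peaks of 1000 bp or more made up 26.0% of the isolated wide peaks (21.8 to 30.6, 98 peaks) and 35.4% of the grouped wide peaks (32.1 to 38.8, 283 peaks). Peaks of 2000 bp or more numbered 12 among the isolated wide peaks (3.18%, 1.83 to 5.48) and 53 among the grouped wide peaks (6.62%, 5.10 to 8.56). The isolated wide peaks covered 344 kb in all, 21.0% of the 1636 kb under peaks on the major arms, and the grouped wide peaks covered 812 kb, or 49.6%.

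Score and width were correlated among isolated wide peaks (rho = 0.50) and among grouped wide peaks (rho = 0.61), so scores were also set side by side at like widths. Among peaks of 500 to under 750 bp the median score was 18.05 for isolated wide peaks (16.7 to 19.5, n = 177) and 17.15 for grouped wide peaks (16.7 to 18.4, n = 340). From 750 to under 1000 bp it was 23.8 (20.5 to 26.5, n = 102) for isolated peaks and 23.6 (20.5 to 26.2, n = 177) for grouped peaks. From 1000 to under 1500 bp it was 29.3 (27.3 to 31.9, n = 64) for isolated peaks and 29.2 (27.3 to 33.7, n = 165) for grouped peaks. At 1500 bp or more it was 41.9 (33.0 to 57.1, n = 34) for isolated peaks and 45.0 (41.0 to 50.9, n = 118) for grouped peaks. The intervals overlapped in all 4 width classes, and the isolated peaks were the higher of the pair in 3 of them. Weighted to the widths of the isolated peaks, the difference was 0.22, so the sign of -1.55 found without matching was not kept.

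**Figure D2:**
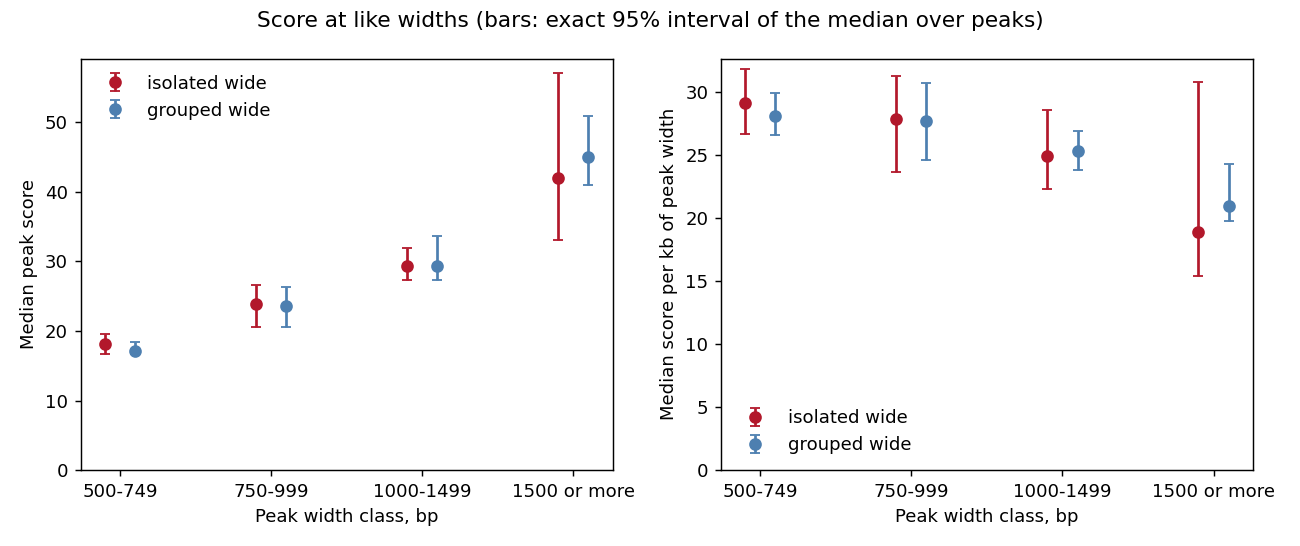
Median score (left) and median score per kb of width (right) in 4 width classes for isolated wide peaks (red) and grouped wide peaks (blue), with the exact 95% interval of the median as bars. The intervals overlap in every class, and the median score climbs with width in both sets, to 41.9 and 45.0 at 1500 bp or more.

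Score per width differed little either. Peaks with a high value are called compact here, although the score need not rise in proportion to the height of a peak. Isolated wide peaks had a median of 27.4 score units per kb (25.6 to 29.1) and grouped wide peaks 26.6 (25.7 to 27.6). The quartiles lay close together, at 20.4 and 36.9 for isolated wide peaks and 19.8 and 36.5 for grouped wide peaks. Only the extreme upper end reached farther among the isolated peaks, at 231 units per kb compared with 108 for the grouped peaks. The standard deviation was 21.0 units per kb among isolated wide peaks and 14.9 among grouped wide peaks. Score and width were less closely related among isolated wide peaks (Pearson's r = 0.39, Spearman's rho = 0.50, n = 377 peaks) than among grouped wide peaks (r = 0.61, rho = 0.61, n = 800 peaks), a description over peaks that share libraries and caller, and the difference between the correlations was not tested.

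The isolated wide peaks with the highest scores included compact and broad ones. The first in score, with 174.1, was on 2R at 16771599 to 16772352; it was 754 bp wide and also had the 231 units per kb. Its nearest peak lay 38.2 kb away. The next, on 2R at 15884529 to 15885601, scored 144.6 over 1073 bp (134.8 units per kb), 34.9 kb from any other peak. Both stand well above the median of 22.0. On 3R the peak at 7094164 to 7095153 scored 121.1 over 990 bp (122.3 units per kb), and the peak at 19711697 to 19713437 scored 121.9 over 1741 bp (70.0 units per kb). These were the 4 isolated wide peaks with a score above 100 (1.06%, 0.41 to 2.70), against 10 among the grouped wide peaks (1.25%, 0.68 to 2.29). A pair of narrower members were as compact: on 3L at 16762780 to 16763466 (687 bp, score 88.1, 128.2 units per kb) and on X at 16861351 to 16862003 (653 bp, score 82.5, 126.4 units per kb). The peak on X had no other peak within 109.8 kb. Next in score after the first 4 was a broad peak on 2R at 8844807 to 8847883, with 95.4 over 3077 bp or 31.0 units per kb. Broad peaks of high score also lay on 3L at 3767205 to 3769513 (90.5 over 2309 bp) and on 2R at 2019320 to 2022146 (87.3 over 2827 bp). The list of the 10 highest scores closed with 3R at 26620158 to 26620966 (86.5 over 809 bp) and X at 2281700 to 2282665 (84.1 over 966 bp). Of the 20 highest scores on the major arms, 5 were isolated wide peaks, 13 grouped wide peaks and 2 isolated peaks under 500 bp.

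Of the 10 widest isolated peaks, 2 were also among the 10 with the highest scores, and others were low for their width. The widest, of 3130 bp on 2L at 11806144 to 11809273, scored 57.1, or 18.2 units per kb, with another isolated wide peak 8.9 kb away. On X the peak at 10716698 to 10719777 spread 3080 bp with a score of 31.3 (10.2 units per kb), and the peak at 11607835 to 11610772 spread 2938 bp with a score of 42.3 (14.4 units per kb). The peak with the lowest score per kb, on 2R at 13307290 to 13309911, had a score of 18.6 over 2622 bp, or 7.1 units per kb. It was followed by the 2950 bp peak on 3L at 724248 to 727197, with a score of 26.2 or 8.9 units per kb. A peak on 3R at 5243638 to 5245333 (15.8 over 1696 bp, 9.3 units per kb) and 1 on 2L at 5292324 to 5293607 (14.9 over 1284 bp, 11.6 units per kb) were likewise low and broad. The other members of the 10 widest were on 3R at 12105739 to 12108396 (39.7 over 2658 bp), on 3L at 3058901 to 3061375 (68.7 over 2475 bp) and on 2R at 16884091 to 16886556 (44.2 over 2466 bp). Among the isolated wide peaks, score per kb thus ran from 231 to 7.1, a range that is not one of peak height.

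The isolated wide peaks with the lowest scores were all narrower than 1000 bp. The lowest of all, with 8.83, was on 2R at 20654902 to 20655562 and was 661 bp wide. The peak on 3L at 5179828 to 5180419 scored 9.19 over 592 bp and was also the peak farthest from any other, at 443.7 kb. On X a peak of 517 bp at 18409853 to 18410369 scored 9.56. The next score, 9.94, was shared by 4 peaks, on 2R at 9434030 to 9434557 (528 bp), on 3L at 11085368 to 11086221 (854 bp) and 21637716 to 21638230 (515 bp) and on 3R at 20875639 to 20876169 (531 bp), of which the rule for named peaks takes the first pair.

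The score has no scale in the file, and its values were read as the negative log10 of a Poisson probability of a read height against a background. With 31.1 background reads, 77 of the 84 scores that recur in the list matched whole read heights. On this reading 285 of the isolated wide peaks, or 75.6% (71.0 to 79.7), had a score that a whole number of reads gives against this common background, compared with 79.2% of the grouped wide peaks (76.3 to 81.9). Those 285 peaks had a median height of 3.31 times the background (3.15 to 3.41; range 2.25 to 9.45), and the 634 grouped wide peaks 3.37 times (3.31 to 3.44; range 2.12 to 10.5). All of the 10 highest-scoring isolated wide peaks matched the common background, the peak at 16771599 on 2R with 9.45 times and the peak at 15884529 with 8.45 times. On X 60 of the 62 isolated wide peaks matched (96.8%, 89.0 to 99.1), against 223 of 312 on the 4 large autosomal arms (71.5%, 66.2 to 76.2). The same held for grouped wide peaks, of which 99 of 100 matched on X (99.0%, 94.6 to 99.8) and 530 of 695 on the large autosomal arms (76.3%, 73.0 to 79.3). The 92 isolated wide peaks off the common background had a median score of 19.8 (18.4 to 21.8) and a median width of 782 bp (720 to 885), compared with 774 bp (728 to 843) for those on it.

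By the rule no other midpoint lay within 5 kb, and beyond that limit the distances varied widely. The nearest peak was at a median of 20.2 kb (17.6 to 23.8; quartiles 10.1 and 41.4 kb), against 1.38 kb (1.29 to 1.45) for grouped wide peaks, for which the rule sets a limit of 5 kb. For isolated peaks under 500 bp the median was 20.3 kb (18.3 to 23.5), so isolated wide and isolated narrow peaks were about equally far from their neighbours. The peak on the other side lay at a median of 88.8 kb (75.3 to 97.3, n = 375 with a neighbour on both sides). Taken peak by peak, the farther distance was a median of 3.11 times the nearer (2.79 to 3.51). The farther distance is the larger by construction, and the ratio was not tested against random spacing. Within 50 kb an isolated wide peak had a median of 2 other peaks (mean 3.08), and an isolated narrow peak also 2 (mean 3.01). No other peak lay within 50 kb of 72 isolated wide peaks (19.1%) and within 100 kb of 31 (8.22%). Measured between edges instead of midpoints, 14 of the 377 had another peak within 5 kb, the closest at 3974 bp.

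The isolated wide peaks farthest from all others had the lowest median score. The median score was 24.9 (21.0 to 28.4, n = 94) where the nearest peak was 5 to 10 kb away, 21.8 (19.6 to 25.2, n = 125) at 10 to 25 kb, 22.5 (20.0 to 25.7, n = 86) at 25 to 50 kb and 23.6 (19.0 to 31.2, n = 41) at 50 to 100 kb. Beyond 100 kb it was 18.1 (15.3 to 19.6, n = 31). The interval of this last class lies below those of the first 3 classes, by the narrowest margin for 10 to 25 kb, and overlaps that of the fourth. Widths moved the same way, with a median of 693 bp beyond 100 kb (592 to 864) and 868 bp at 5 to 10 kb (746 to 930), with overlapping intervals. The distance classes were not compared at like widths. For all isolated wide peaks of 500 to under 750 bp the median score was 18.05 and the median score per kb 29.2. Beyond 100 kb the upper quartile of width was 926.5 bp, so that class also held wider peaks. Its median score per kb was 22.5 (18.7 to 25.02), the lowest of the distance classes. From near to far the others had 27.4, 27.5, 29.9 and 29.1. The interval beyond 100 kb lies below that for 25 to 50 kb (26.4 to 32.9) and overlaps those of the other classes. Whether the lower score beyond 100 kb goes beyond that of narrower peaks was not tested. Across all 377 peaks the relation of score to distance was weak (r = -0.11, rho = -0.10, peaks of the same libraries). The 5 farthest peaks were, after the peak on 3L at 443.7 kb, on 3R at 1833274 to 1834137 (323.3 kb, score 17.6), on 3R at 22361955 to 22362840 (260.0 kb, score 21.5), on 3L at 6488958 to 6489608 (246.3 kb, score 23.6) and on 2L at 9176228 to 9176768 (226.3 kb, score 10.7). The highest score among the 31 remote peaks, 82.5, was that of the compact peak on X at 16861351.

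**Figure D3:**
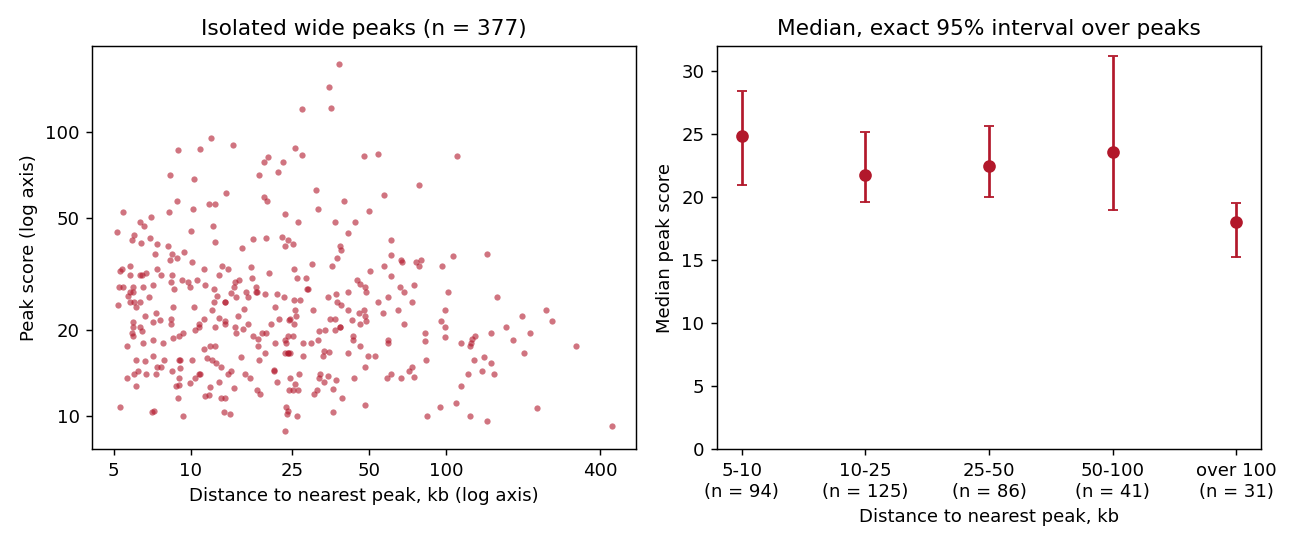
Left, score against the distance to the nearest peak (both log axes) for each of the 377 isolated wide peaks. Right, median score in 5 distance classes with the exact 95% interval of the median. The class beyond 100 kb has the lowest median, 18.1, and the first class the highest, 24.9.

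The peak nearest to an isolated wide peak was most often narrow and alone. It was an isolated narrow peak in 158 cases (41.9%, 37.0 to 46.9), another isolated wide peak in 85 (22.5%, 18.6 to 27.0), a grouped narrow peak in 79 (21.0%, 17.1 to 25.3) and a grouped wide peak in 55 (14.6%, 11.4 to 18.5). The nearest peak was thus wide in 37.1% (32.4 to 42.1), compared with 42.7% (38.8 to 46.7) for isolated narrow peaks and 43.9% (42.1 to 45.8) of all peaks on the major arms. The major arms held 967 isolated peaks, 590 of them narrow, and 565 groups. Only the outer peaks of a group can be nearest to an isolated peak. The shares of isolated and grouped neighbours were not tested against those that this spacing alone would give. In 26 pairs 2 isolated wide peaks were each other's nearest peak, at a median distance of 19.6 kb (range 5.96 to 73.3 kb), and the higher score of a pair was a median of 1.54 times the lower. The longest rows of isolated wide peaks with no other peak between them held 4, and there were 4 such rows. Scores were 10.3 to 14.4 in the row on 2L between 5325117 and 5907708, 14.0 to 36.6 on 3L between 14269147 and 14546200, and 17.1 to 26.9 on 3R between 5958866 and 6090962. The row on 3R between 7094164 and 7198448, which begins with the compact peak of score 121.1, ran from 48.15 to 121.1. Of the 305 isolated wide peaks with another peak within 50 kb, 156 had the highest score in that neighbourhood (51.1%, 45.6 to 56.7). The same held for 252 of 800 grouped wide peaks (31.5%, 28.4 to 34.8), which by the rule all have a neighbour within 5 kb. It held for 63 of 452 isolated narrow peaks (13.9%, 11.0 to 17.4), whose median score was 11.3. The rule shapes the number of competing peaks through spacing and the score through width. These shares are therefore a description and do not compare like neighbourhoods.

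All 6 arms held isolated wide peaks, in shares that did not stand apart. There were 92 on 3R, 86 on 2R, 75 on 3L, 62 on X, 59 on 2L and 3 on chromosome 4. As a share of the peaks of each arm they made up 13.4% on 3R (11.1 to 16.2), 14.1% on 2R (11.5 to 17.0), 13.9% on 3L (11.2 to 17.1), 15.7% on X (12.4 to 19.6), 13.8% on 2L (10.8 to 17.3) and 16.7% on chromosome 4 (5.84 to 39.2). These intervals all overlap. X held 16.4% of the isolated wide peaks (13.0 to 20.5) and 12.5% of the grouped wide peaks (10.4 to 15.0), while 3R held 24.4% of the isolated (20.3 to 29.0) and 29.0% of the grouped (26.0 to 32.2). Of the wide peaks of X, 38.3% were isolated (31.1 to 45.9), compared with 31.0% on the 4 large autosomal arms (28.2 to 33.9). Relative to the span that peaks take up on an arm, there were 4.10 isolated wide peaks per Mb on 2R, 3.31 on 3R, 3.08 on 3L, 2.84 on X, 2.70 on 2L and 2.41 on chromosome 4. Grouped wide peaks numbered 9.45 per Mb on 2R, 8.36 on 3R, 6.33 on 3L, 4.58 on X, 5.07 on 2L and 4.01 on chromosome 4. The arms 2R and 3R thus led in both sets. In stretches of 1 Mb the number reached at most 9, on 2R and 3R.

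Peaks that stood alone were less often wide than peaks in groups. Of the 967 isolated peaks 39.0% were 500 bp or more (36.0 to 42.1), and of the 1712 grouped peaks 46.7% (44.4 to 49.1), a difference of -7.74 percentage points. The rule used both measures, so this is a description. The difference was -0.74 percentage points with a neighbour distance of 2 kb and -3.45 with peaks within 1 kb joined first. On the 4 large autosomal arms the shares were 38.7% of isolated peaks (35.4 to 42.1) and 47.6% of grouped peaks (45.1 to 50.2). On X they were 40.8% of isolated peaks (33.3 to 48.7) and 41.2% of grouped peaks (35.1 to 47.4). Whether X differs from the autosomes in this was not tested. Among isolated peaks the wide share showed no steady course with distance: 40.7% with the nearest peak at 5 to 10 kb (34.6 to 47.1), 39.2% at 10 to 25 kb (34.0 to 44.6), 41.5% at 25 to 50 kb (35.0 to 48.4), 31.8% at 50 to 100 kb (24.4 to 40.2) and 38.3% beyond (28.4 to 49.2).

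**Figure D4:**
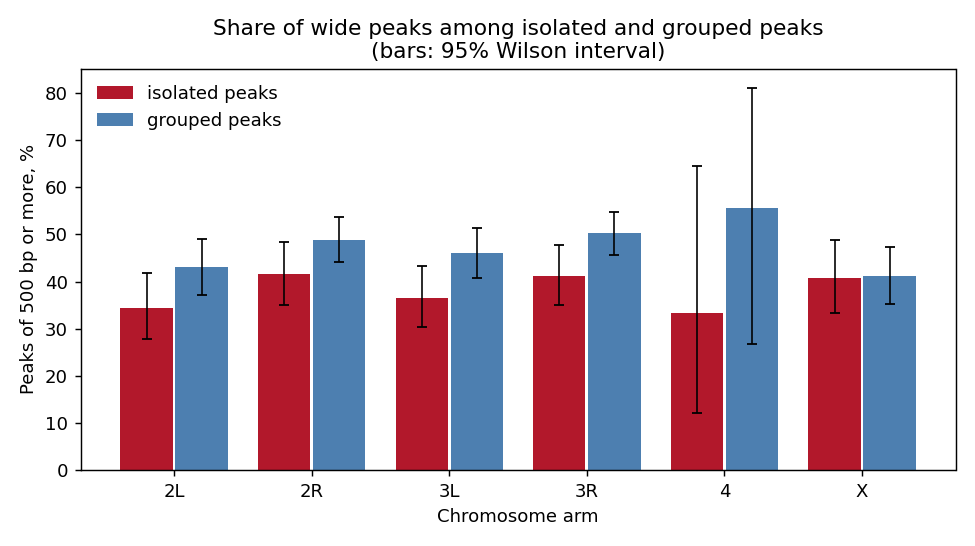
Percent of peaks that were 500 bp or more among isolated peaks (red) and grouped peaks (blue) on each arm, with 95% Wilson intervals. The isolated share is lower on 2L, 2R, 3L, 3R and 4, with overlapping intervals on each arm, and the shares nearly coincide on X (40.8% and 41.2%).

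Within the set, the arms differed little in score. The median score of isolated wide peaks was 24.9 on 2R (21.0 to 26.8, n = 86), 24.1 on X (19.5 to 27.9, n = 62), 23.1 on 3R (20.5 to 28.4, n = 92), 20.0 on 2L (18.4 to 23.1, n = 59) and 19.6 on 3L (17.6 to 22.0, n = 75), and each interval overlaps those of all the others. Grouped wide peaks had medians of 23.1 on 2R, 21.5 on X, 24.4 on 3R, 25.2 on 2L and 23.3 on 3L. The highest isolated wide peak of 2L, at 19425855 to 19426725, scored 70.9 over 871 bp, the lowest top score of the 5 large arms. On chromosome 4, which is small and largely heterochromatic, the 3 isolated wide peaks lay at 424929 to 425972 (1044 bp, score 57.1), at 509397 to 510357 (961 bp, score 41.0) and at 1284316 to 1284988 (673 bp, score 13.3). The first of these, with 5.04 times the common background, and the next were above the upper quartile of 31.4 for all isolated wide peaks.

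The limits of the rule cut through a continuous range of peaks. Just inside the width limit were peaks of 501 bp on 3R at 12660230 (score 42.9), 502 bp on X at 12548176 (27.3) and 505 bp on 3L at 22260446 (13.6). Just outside it were isolated peaks of 498 bp on 3L at 2438545 (16.2), on 3R at 2900643 (8.63) and on 3L at 11885870 (28.4). Just inside the distance limit were peaks on 3R at 25106311 (1174 bp, score 44.6, nearest peak at 5.1 kb), at 19125873 (1207 bp, 24.6, 5.2 kb) and at 12455829 (1167 bp, 28.4, 5.3 kb). Just outside it were wide peaks with a neighbour at 4.9 kb on 3R at 27548577 (2889 bp, score 27.3) and on 2R at 10194695 (947 bp, 46.2) and 11990072 (2054 bp, 30.1).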

How the data were processed

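The authors deposited 1 list of peaks, with a score per peak whose scale the file does not state. The coordinates refer to FlyBase release 5, with MACS as the source of the peaks, per the file headers. MACS2, BWA, CASAVA (1.7.0.2 and 1.7.0.3) and the build BDGP5 appear in the submitters' processing notes, without their roles. How thresholds were set and replicates combined is not given in the sources used here. Peaks on U, Uextra and the Het sequences were kept out.

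Peaks were classed with Python 3.11.15, numpy 2.4.6, pandas 2.3.3 and scipy 1.17.1 by width and by the distance between midpoints. Chains of midpoints within 5 kb made the groups. Medians have exact 95% binomial intervals and shares 95% Wilson intervals, both over peaks as if independent, and cover counting error only. Read heights come from the background, scanned from 5 to 120 reads, that matched most scores shared by 5 or more peaks within 0.0061, counting a height or more. A background more than 1 read away matched at most 10 of the 84. The classing, the intervals and the scan were tested on simulated data. Named are the 10 highest, 10 widest, 5 farthest, 5 most and 5 least compact and 5 lowest peaks, the highest of each arm and those at the limits. The longest rows and the 3 peaks of chromosome 4 were chosen after their values were seen. The members, classes and measures were chosen with earlier results of these data known.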

Additional observations from a re-analysis of the deposited data

Results flagged for a closer look

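The same rule applied outside the major arms gave 19 isolated wide peaks among the 417 peaks of Uextra and 5 among the 10 of U, which no comparison above uses and which drew attention because they are called there at all. The 19 on Uextra had a median score of 83.6 (range 16.5 to 106.5), a median width of 542 bp and none wider than 733 bp, against a median score of 22.0 and a median width of 774 bp on the major arms. The 5 on U had a median score of 26.2 (range 18.5 to 41.9) and a median width of 690 bp. Both sequences collect unplaced pieces of release 5, so a distance to the next peak there need not be a distance in the genome.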

How the results depend on the processing

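In all, 106 alternatives were computed for 10 results. Of these, 67 did not change sign and stayed within the interval of the reported value (for the number of peaks, within 1.5 times). The 10 that changed sign were counted apart, whether or not they lay within that interval. For a difference, the interval was that of the isolated peaks alone and leaves out the uncertainty of the grouped peaks. No result has a test, so a sign that changes is a change of a small difference. The difference in median score between isolated and grouped wide peaks, -1.55, was 2.05 with a neighbour distance of 2 kb, 0.90, 0.26 and 0.04 in the 3 lower width classes, 0.22 weighted over width classes, 2.58 on X alone, -3.07 at 1500 bp or more and -4.08 with a width minimum of 1000 bp. The difference in score per kb, 0.86, was -0.0065 with a width minimum of 1000 bp, -1.03 with peaks within 1 kb joined, -0.42 from 1000 to under 1500 bp and -2.09 at 1500 bp or more. Neither direction is therefore settled. The lower share of wide peaks among isolated than among grouped peaks, -7.74 percentage points, kept its sign under every alternative run but shrank to -0.74 with a neighbour distance of 2 kb, -3.45 with peaks joined and -0.36 on X alone, and was -10.8 above the median score. The number of isolated wide peaks was 615 with a neighbour distance of 2 kb, 200 and 98 with width minimums of 750 and 1000 bp, and 687 with peaks joined. The median score was 20.0, 28.4 and 31.3 with width minimums of 400, 750 and 1000 bp and 25.2 above the median score. The median score per kb was 29.2 with 400 bp, 24.3 with 1000 bp, 30.0 above the median score and 20.1 with peaks joined. The share of wide peaks that were isolated was 52.3% at 2 kb, 24.0% at 10 kb, 25.7% with 1000 bp, 40.2% above the lower quartile of the score, 49.3% above the median and 63.6% with peaks joined. The median distance to the nearest peak was 8411 bp at 2 kb, 27325 bp at 10 kb, 15696.5 bp with 1000 bp, 24462.5 bp above the lower quartile and 29617.5 bp above the median score. Other limits of width, distance or score change the set itself, which makes these values differ by construction, and for the other changes the cause was not tested. X alone, the large autosomal arms alone, the wider tolerance of the score series and the median without remote peaks were added after seeing the data. No paired analysis was possible because each peak carries a score for the libraries together, and for that reason no replicate could be left out either. Promoter overlap, base composition and motifs were not run, since no genome of release 5 was used here. The depth is unknown, so a stretch without a peak is not shown to lack Cmi.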
